A study of Mus musculus with 8 samples.

Results

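The cytosolic ribosomal protein genes were followed in whole retinas of mice with and without *Mettl3* in the retinal lineage. The family was taken by name, as every protein-coding gene whose symbol begins with Rpl or Rps followed by a number, a P-stalk name or a lone a. The S6 kinases, whose symbols begin with Rps6k, and gene copies marked -ps were left out. The rule found 86 of the 54532 genes in the table, of which 33 encode 40S and 51 encode 60S subunit proteins or their paralogues. The remaining 2, *Rps19bp1* and *Rpl7l1*, carry such names but encode nucleolar proteins that are not part of the mature ribosome. The rule itself reads names and gene types only.

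Bulk RNA-seq was performed on 4 *Mettl3*-CKO and 4 control retinal samples, without any treatment. The *Mettl3*-CKO mice were *Six3-Cre*+; *Mettl3* floxed/floxed, in which Cre removes the RNA methyltransferase *Mettl3* from retinal progenitor cells, and the exact genotype of the controls was not given in the sources used here. The labels put the age at postnatal day 7, whereas the methods of the study give the day before. Because *Six3-Cre* acts mainly in the central retina and the whole tissue was sequenced, each *Mettl3*-CKO library could also hold RNA of cells that kept the gene. Nothing in the labels ties a sample to a single animal, so p-values measure the spread between these samples.

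A ribosome is built from a small 40S and a large 60S subunit, each an RNA scaffold covered by many different proteins. The genes for these proteins are expressed at a high level in every cell. Their mRNAs begin with a run of pyrimidines, the 5′ terminal oligopyrimidine or TOP motif, through which the mTORC1 pathway sets their translation. In the developing retina, dividing progenitors make ribosomes faster than postmitotic neurons do. METTL3 writes N6-methyladenosine, a base modification of mRNA that affects, among other steps, how long a transcript lasts.

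*Mettl3* itself, counted over the whole gene, was at 21.1, 29.6, 21.3 and 24.3 CPM in the 4 *Mettl3*-CKO retinas, against 33.8, 32.5, 29.4 and 29.3 CPM in the 4 control retinas. CPM are counts per 1000000 counts of the library, after TMM scaling of libraries that held between 16227095 and 20281517 counts. Values of the 4 retinas of a group are given in the order of their replicate numbers throughout. The log2 fold change was -0.38, with a standard error (SE) of 0.12 and a Benjamini-Hochberg adjusted p of 0.0602 in edgeR's quasi-likelihood test, and *Mettl3*-CKO replicate 2 overlapped the controls. DESeq2 called it lower (adjusted p = 0.032), and over the alternatives the adjusted p ranged from 0.0185 to 0.185. Control replicate 4 stood apart by its lens genes: the 18 lens markers summed to 5862 CPM there and to between 9.49 and 114 CPM in the other controls. Control replicate 1 stood apart within the ribosomal protein family, as described with its values in the paragraphs on single retinas.

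The family differed little between the groups. Of 84 members with enough counts to be tested, 3 rose in *Mettl3*-CKO retinas and 0 fell at an adjusted p-value under 0.05 (edgeR's quasi-likelihood test). The 3 were *Rpl39*, *Rplp1* and *Rps27l*, with log2 fold changes between 0.34 and 0.48. They make up 3.57% of the tested members, whereas 6.49% of all 17998 tested genes were called higher and 4.05% were called lower, so the share called was not above the background. At an unadjusted p-value under 0.05, 14 members were higher and 1 was lower, beside 13.5% and 11.1% of all tested genes. DESeq2 called 6 members higher and 0 lower, beside 8.38% and 5.79% of the 17609 genes to which it gave an adjusted p.

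Most members were nevertheless on the same side of zero. The fitted log2 fold change was above 0 for 74 of 84 members (88.1%), compared with 48.2% of all tested genes. The median was 0.15 for the members and -0.01 for all tested genes, and the quartiles of the members were 0.07 and 0.22, against -0.18 and 0.18 for all genes. No member had a fitted change above 2-fold, and 67 of 84 had a fitted log2 fold change within 0.25 of zero, where a typical standard error was 0.11. In bulk RNA, a change in the number of cells of a type and a change in the RNA of each cell cannot be told apart.

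**Figure D1:**
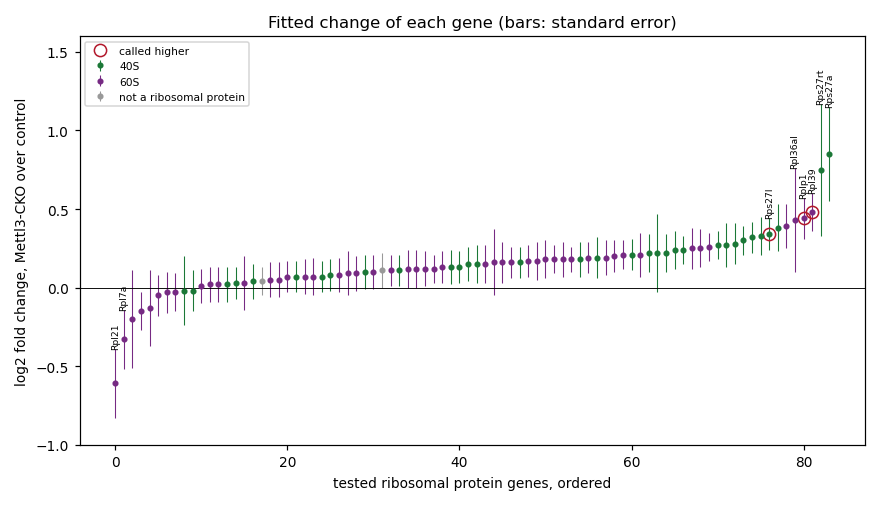
Fitted log2 fold change (*Mettl3*-CKO over control, vertical axis) of the 84 tested genes in ascending order, with bars for the standard error and colours for the subunit. Red circles mark the 3 genes called higher, and 74 of the 84 points lie above 0.

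The members shifted together from retina to retina. Set against each gene's mean over the 8 samples, the median member stood at 0.13, -0.09, 0.24 and -0.02 (log2 CPM) in the 4 *Mettl3*-CKO retinas. In the 4 control retinas it stood at 0.15, -0.21, -0.13 and -0.08, while the median of all tested genes stayed within 0.01 of its mean in every sample. *Mettl3*-CKO replicate 3 was thus the highest library and held the top value for 54 members, and control replicate 2 was the lowest and held the bottom value for 50. Control replicate 1 went against its group, with 65 of 84 members above their own mean, compared with 4 in control replicate 2, 5 in control replicate 3 and 25 in control replicate 4.

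**Figure D2:**
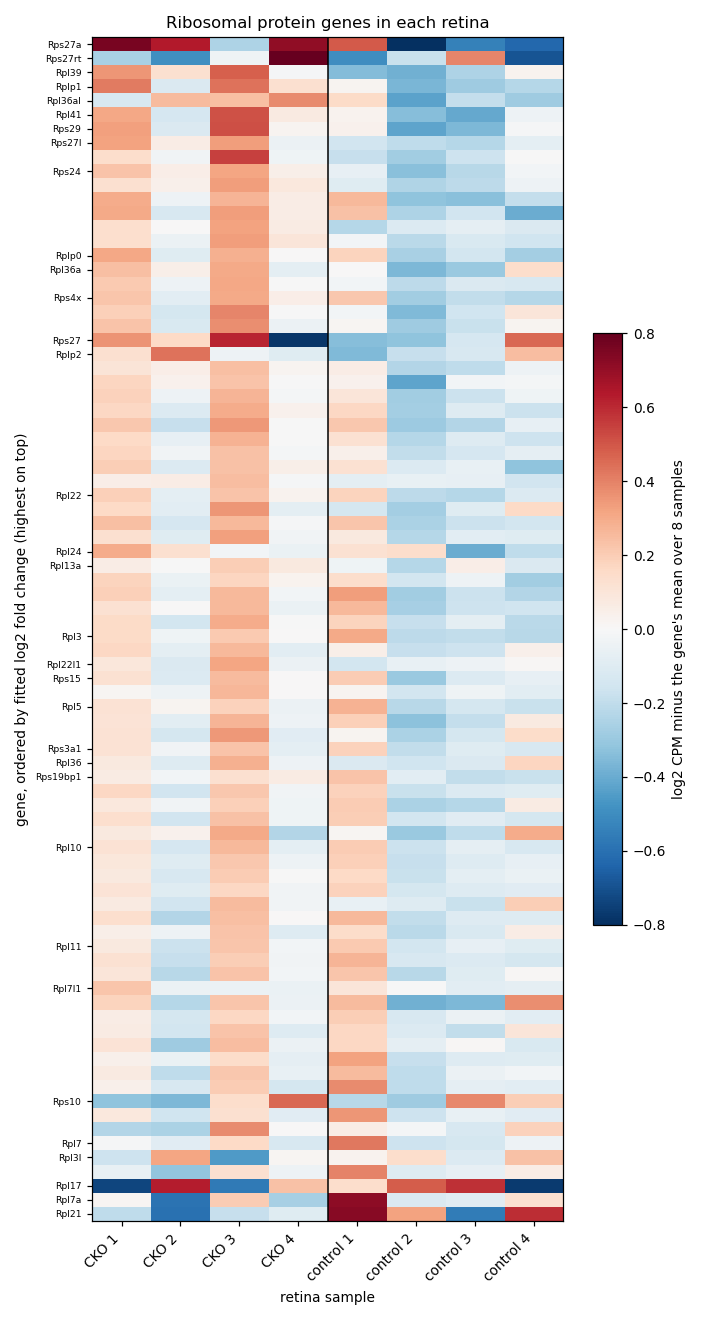
Heat map of log2 CPM minus the gene's mean over 8 samples, with one row for each of the 84 tested genes, names beside the rows of the main genes, and one column for each retina sample. Columns of one colour show that most members shift together within a sample, with *Mettl3*-CKO replicate 3 highest and control replicate 2 lowest.

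The number of calls rested on single libraries. Without control replicate 1, 23 members were called higher and 0 lower (27.4% of the members, against 10.3% of all genes called higher in that fit), with a median of 0.21. Without *Mettl3*-CKO replicate 1 or 3, or without control replicate 2 or 3, 0 members were called higher, and without control replicate 3 *Rpl21* was called lower. With control replicates 1 and 4 both left out, a choice made after the values were seen, 13 members were called higher (15.5%, against 6.25% of all genes) and the median was 0.25. The median stayed above 0 in each of these fits, with a lowest value of 0.09 without *Mettl3*-CKO replicate 3.

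The share of the library spent on the family varied in the same way. The 86 genes took 3.0, 2.53, 3.18 and 2.69% of all counts in the 4 *Mettl3*-CKO retinas. They took 2.88, 2.33, 2.44 and 2.55% in the 4 control retinas. The mean share was 2.85% ± 0.297 in mutant and 2.55% ± 0.241 in control retinas (SD, n = 4), so the difference between the means was about the size of the spread between retinas and the groups overlapped.

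**Figure D3:**
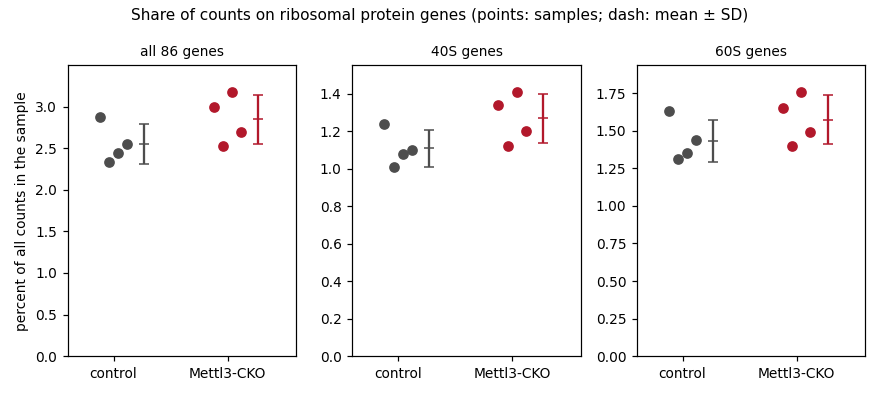
Percent of all counts in each sample on the 86 genes, the 40S genes and the 60S genes, with points for samples and dashes with bars for the mean ± SD of 4 samples. In all 3 panels the groups overlap, with control replicate 1 above the other controls.

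The small changes were spread over both subunits. Among 40S members, 31 of 33 tested genes had a fitted log2 fold change above 0, with a median of 0.19, and among 60S members 41 of 49 did, with a median of 0.12. The range was -0.02 to 0.85 for 40S and -0.61 to 0.48 for 60S members. The ratio of 40S to 60S counts was 0.811, 0.799, 0.801 and 0.805 in the 4 *Mettl3*-CKO retinas, against 0.761, 0.77, 0.795 and 0.761 in the 4 control retinas. These groups did not overlap, with a distance of 0.004 between the nearest samples. With 5 genes of uneven counts left out, chosen after their values were seen (*Rps27*, *Rps27a*, *Rps27rt*, *Rpl17* and *Rpl21*), the ratios were 0.762 to 0.772 and 0.733 to 0.772, and the groups overlapped.

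Sequences around the annotated start were read for the members the text turns on, to show the pyrimidine run and the likeness of *Rps27* and *Rps27rt*. RefSeq start windows of GRCm38.p6, from 250 bases before to 50 bases after the start, were found for 66 of the 86 members. *Rplp1* was not among them, and *Rpl35* and *Rpl7a* are shown as examples of the run across the start. Each line gives 30 bases, 5′ to 3′ on the strand of the gene. Capitals mark a CTTTC in each line that holds one, further matches being left in lower case. The marked CTTTC is at position 37 from the annotated start in *Rpl39*, and so not at the start. In the other marked lines it is at positions -5 to 1.
*Rpl39*, chrX:37085173-37085202, minus strand: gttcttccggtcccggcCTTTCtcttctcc
*Rps27l*, chr9:66946071-66946100, plus strand: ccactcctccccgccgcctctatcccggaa
*Rpl35*, chr2:39005119-39005148, minus strand: gtcggccccgccCTTTCctctttctctcga
*Rpl7a*, chr2:26910790-26910819, plus strand: caattccctcttCTTTCtttctccagcagc
*Rps27*, chr3:90213630-90213659, minus strand: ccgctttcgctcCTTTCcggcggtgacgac
*Rps27rt*, chr9:114982722-114982751, minus strand: acttatcccttgCTTTCcggcggtgacgac
CTTTC, searched on the gene's own strand within 50 bases of the start on either side, was present in 34 of 66 members (51.5%) and in 14.6% of 27025 genes with such a window. CCGGAAG, a core of ETS factor sites, was present on either strand of the 300-base window in 39.4% of the members and 9.93% of genes, and the TATA box TATAAA in 10.6% and 15.7%. The median log2 fold change was 0.16 in 33 tested members with CTTTC and 0.16 in 31 without. These matches describe letters in a window, and the annotated start can lie away from the start that the retina uses.

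*Rpl39* (ENSMUSG00000079641, chromosome X, 37082520 to 37085402, minus strand) encodes one of the smallest 60S proteins, which lines the exit tunnel of the nascent chain. It was measured at 206, 176, 225 and 160 CPM in the 4 *Mettl3*-CKO retinas, against 126, 123, 136 and 164 CPM in the 4 control retinas. Control replicate 4 was the only control as high as the lowest *Mettl3*-CKO retina. *Rpl39* rose by 0.48 on the log2 scale (SE 0.12, adjusted p = 0.0248, edgeR's quasi-likelihood test). It was called in 14 of 18 alternatives, over which the adjusted p ranged from 0.0016 to 0.0998.

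*Rplp1* (ENSMUSG00000007892, chromosome 9, 61913284 to 61914542, minus strand) encodes an acidic protein of the P-stalk, the arm of the 60S subunit that recruits and activates translation factors. It was at 720, 498, 730 and 590 CPM in the 4 *Mettl3*-CKO retinas, against 549, 419, 443 and 461 CPM in the 4 control retinas. Only control replicate 1 reached into the *Mettl3*-CKO range. *Rplp1* rose by 0.44 (SE 0.13, adjusted p = 0.0467, edgeR). It was called in 11 of 18 alternatives, over which the adjusted p ranged from 0.00543 to 0.156.

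*Rps27l* (ENSMUSG00000036781, chromosome 9, 66946086 to 66949516, plus strand) encodes a paralogue of the 40S protein RPS27 and is a known target of p53. It was at 84.4, 70.2, 85.3 and 65.3 CPM in the 4 *Mettl3*-CKO retinas, against 60.8, 58.5, 57.5 and 63.9 CPM in the 4 control retinas. Every *Mettl3*-CKO sample was above every control. *Rps27l* rose by 0.34 (SE 0.10, adjusted p = 0.0495, edgeR), and the two-sided exact permutation test over samples gave p = 0.0286, the smallest that 4 against 4 samples allow. With the replicate number as a block it did not pass the test (adjusted p = 0.0664, edgeR). It was called in 9 of 18 alternatives, over which the adjusted p ranged from 0.0196 to 0.172.

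The groups did not overlap for 5 members, all higher in *Mettl3*-CKO retinas, among them *Rps27l* and, chosen after their values were seen, *Rps24*, *Rps15a* and *Rpl27*. Over all tested genes, 9.77% had every *Mettl3*-CKO sample above every control and 7.58% had every one below. *Rps24*, a 40S protein gene mutated in Diamond-Blackfan anaemia, had a log2 fold change of 0.32 (SE 0.10, adjusted p = 0.0562, edgeR), which did not pass the test.

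Within the P-stalk, *Rplp1* was the only gene of 3 that was called. *Rplp0*, the scaffold of the stalk, was at 1233, 932, 1210 and 997 CPM in the 4 *Mettl3*-CKO retinas, against 1127, 830, 898 and 824 CPM in the 4 control retinas, a log2 fold change of 0.25 (SE 0.13, adjusted p = 0.244, edgeR). *Rplp2*, the partner of *Rplp1*, had a log2 fold change of 0.21 (SE 0.14, adjusted p = 0.39, edgeR), and its highest control, replicate 4 at 198 CPM, lay above 3 of the 4 *Mettl3*-CKO samples. The stalk genes thus had fitted changes of one sign, without a test that separates the other two from zero.

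The 5S ribonucleoprotein holds RPL5 and RPL11, which bind MDM2 and stabilize p53 when ribosome assembly fails. *Rpl5* was at 517 ± 36.7 CPM in *Mettl3*-CKO and 475 ± 81.3 CPM in control retinas (SD, n = 4), and *Rpl11* at 406 ± 46.1 and 392 ± 45.6 CPM. Neither passed the test, with adjusted p-values of 0.563 and 0.823 (edgeR). Of 20 ribosomal protein genes mutated in Diamond-Blackfan anaemia, 0 were called, with a median log2 fold change of 0.17.

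Levels per length ranged widely across the family. FPKM, counts per 1000 bases of gene length and 1000000 counts of the library, had a median of 148 over the members in control retinas, compared with 5.08 over all tested genes. The highest were *Rplp1* at 931 ± 95.6, *Rpl36* at 573 ± 68.9, *Rplp0* at 550 ± 73.8, *Rps3a1* at 541 ± 55.1 and *Rps15* at 532 ± 67.6 FPKM in control retinas (SD, n = 4). The last 4 did not differ beyond their spread. In *Mettl3*-CKO retinas the same genes were at 1273 ± 221, 622 ± 72.5, 660 ± 90.5, 591 ± 53.8 and 587 ± 61.9 FPKM.

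The lowest tested members were *Rpl36al* at 0.391, *Rpl3l* at 1.24, *Rpl24* at 2.39, *Rps10* at 2.6 and *Rpl13a* at 9.7 FPKM in control retinas. *Rpl3l* is a paralogue used in striated muscle and was low throughout. For the other 4, the annotation places a second gene on the same strand across the same exons, namely *Gm49383*, *Gm28037*, *RPS10-NUDT3* and *Gm45713*. These second genes held 0 counts in all samples except *Gm49383* with 2. *Rps10*, a 40S protein gene expressed in every cell, was at 4.65 to 8.06 CPM while its retrotransposed copy *Rps10-ps2* was at 74.2 to 102 CPM, and whether the overlap lowers the counts of these 4 genes was not tested.

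Paralogues of ribosomal proteins were compared with the gene they resemble. *Rpl10l* and *Rpl39l*, known from the testis, were not tested: each had 0 counts in 7 samples and 2 counts in control replicate 1. *Rpl3l* had 1.38 to 2.44 CPM and a log2 fold change of -0.13 (SE 0.24), against 0.15 (SE 0.12) for *Rpl3*. *Rpl22l1* was at 0.13 (SE 0.10) and its parent *Rpl22* at 0.18 (SE 0.11), with FPKM of 19.5 ± 1.19 and 82.3 ± 9.79 in control retinas. None of these passed the test.

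*Rpl36a* had a log2 fold change of 0.25 (SE 0.12), *Rpl10* of 0.08 (SE 0.11), *Rps4x* of 0.24 (SE 0.12) and *Rpl7* of -0.05 (SE 0.13), none of which passed the test. *Rps4l*, a transcribed processed pseudogene related to *Rps4x* and therefore not a member, was at 55, 36.1, 52.4 and 47.2 CPM in the 4 *Mettl3*-CKO retinas, against 40.4, 35, 28.6 and 32.7 CPM in the 4 control retinas. It rose by 0.48 (SE 0.14, adjusted p = 0.0429, edgeR), with 1 control above the lowest *Mettl3*-CKO sample. *Rps4l* was called in 11 of 18 alternatives, over which the adjusted p ranged from 0.00681 to 0.149.

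*Rps27* and *Rps27rt* could not be separated. The table gives them to different chromosomes, and 98.4% of the 100-base words of the *Rps27* transcript also occur in *Rps27rt*, whose start windows share a run of 38 bases. *Rps27* was at 322, 281, 383 and 146 CPM in the 4 *Mettl3*-CKO retinas, against 198, 200, 229 and 345 CPM in the 4 control retinas. *Rps27rt* was at 42.5, 36.2, 49.6 and 171 CPM and at 36, 44.9, 66.5 and 31.4 CPM. Its log2 fold change was 0.75 (SE 0.42, adjusted p = 0.307, edgeR), and -0.06 without *Mettl3*-CKO replicate 4. Over all alternatives its adjusted p ranged from 0.0299 to 0.903. In *Mettl3*-CKO replicate 4 *Rps27* was the lowest of all samples and *Rps27rt* the highest. Their sum was 365, 317, 432 and 318 CPM in *Mettl3*-CKO and 234, 245, 295 and 376 CPM in control retinas, with 1 control in the *Mettl3*-CKO range (two-sided exact permutation test of log2(CPM + 1), p = 0.143).

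*Rpl17* and a copy, described here after their values were seen, also tended to run opposite in their counts. Of the *Rpl17* transcript words, 77.1% occur in other genes, 16 in all, with the most in *Rpl17-ps3* (49.1%). The share with the copy described here is not given. *Rpl17* was at 49.8, 128, 55.9 and 97.7 CPM in the 4 *Mettl3*-CKO retinas, against 91.3, 116, 125 and 48.8 CPM in the 4 control retinas. The processed pseudogene *Rpl17-ps10* was at 160, 48.2, 181 and 96.6 CPM and at 175, 67.9, 66.2 and 157 CPM. In the 3 samples with the lowest *Rpl17* the copy was at 157 CPM or more, and the sum was steadier, at 204 ± 25.6 CPM in *Mettl3*-CKO and 212 ± 37.7 CPM in control retinas (SD, n = 4).

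**Figure D4:**
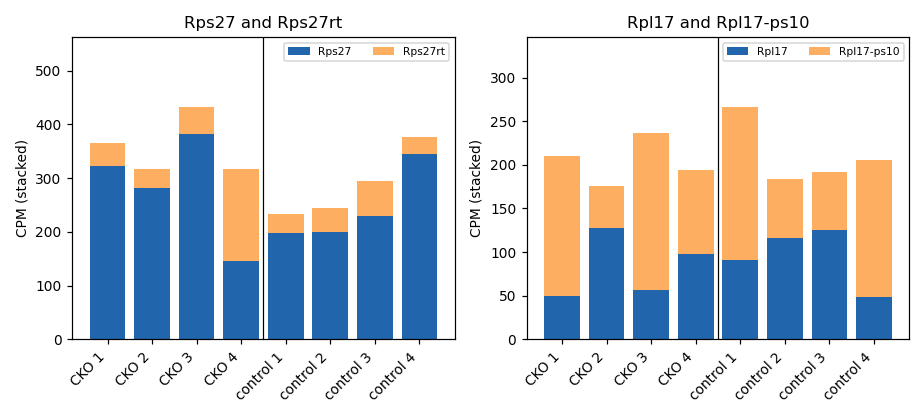
Stacked CPM of *Rps27* with *Rps27rt* and of *Rpl17* with *Rpl17-ps10* in each retina sample. In *Mettl3*-CKO replicate 4 the *Rps27* bar falls to 146 CPM and the *Rps27rt* bar reaches 171 CPM, whereas the summed bars span a narrower fold range than either gene.

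The largest fitted changes in the family were not called in fits of all samples with a filter on low counts and no block. The genes are named here after their values were seen. *Rps27a*, which encodes ubiquitin fused to a 40S protein, was at 372, 340, 185 and 359 CPM in the 4 *Mettl3*-CKO retinas, against 309, 96.6, 151 and 142 CPM in the 4 control retinas. Control replicate 1 and *Mettl3*-CKO replicate 3 crossed over. The log2 fold change was 0.85 (SE 0.30, adjusted p = 0.0945, edgeR), and 1.28 (adjusted p = 0.000637) without control replicate 1. With the replicate number as a block it was called at 0.92 (adjusted p = 0.0431, edgeR). Without a filter on low counts it was called at 0.85 (adjusted p = 0.000482, edgeR). Over all alternatives the adjusted p ranged from 0.000482 to 0.254. Of its transcript words, 55.9% occur in the pseudogene *Gm8430*, and the sum of both genes was 324 ± 80.2 CPM in *Mettl3*-CKO and 186 ± 88.6 CPM in control retinas (SD, n = 4).

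*Rpl21*, a 60S protein gene, was at 65.4, 49.9, 66.3 and 70.6 CPM in the 4 *Mettl3*-CKO retinas, against 125, 94.2, 51.1 and 114 CPM in the 4 control retinas. Control replicate 3 lay within the *Mettl3*-CKO range and the other controls above it. The log2 fold change was -0.61 (SE 0.22, adjusted p = 0.0952, edgeR), and -0.81 (adjusted p = 0.00647) without control replicate 3. Without a filter on low counts *Rpl21* was called lower at -0.61 (adjusted p = 0.0034, edgeR). The log2 fold change was -0.22 (adjusted p = 0.409, edgeR) with the counts of -ps copies added and -0.21 without control replicates 1 and 4. Over all alternatives the adjusted p ranged from 0.0034 to 0.531. *Rpl7a*, the next lowest, had a log2 fold change of -0.33 (SE 0.19, adjusted p = 0.326, edgeR).

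Copies bear on the whole family. In the median member 34.5% of the 100-base words of the main transcript occur in another annotated gene, 32 of 86 members share more than 50% and 10 share none. The 21 tested members with under 20% of shared words, a limit set after the values were seen, had a median log2 fold change of 0.18 with 2 called higher. Of 298 genes marked -ps, 74 could be tested, 2 were called higher and 0 lower, with a median of 0.14. Adding the counts of the copies to their genes left 3 members called higher and the median at 0.15.

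Short members had the larger fitted changes. Coding lengths ran from 75 bases in *Rpl41* to 1257. The median log2 fold change was 0.33 in 11 members of up to 300 coding bases, 0.19 in 23 of up to 420, 0.10 in 26 of up to 600 and 0.09 in 24 longer ones. Without *Mettl3*-CKO replicate 3 the shortest class was at 0.19 and the longest at 0.04, without control replicate 1 they were at 0.32 and 0.18, and without control replicate 2 at 0.29 and 0.05. The longest class was at 0.06 without control replicate 4 and at 0.14 without *Mettl3*-CKO replicate 2. Among other tested coding genes the medians in the same classes were 0.03, 0.01, 0 and -0.01.

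Across the 84 members, coding length and log2 fold change had a Spearman rho of -0.483 and a Pearson r of -0.423 on the log2 length. This is a description, since the members share libraries and are not independent. The value was -0.263 without control replicate 1 and -0.657 without control replicate 4, and it lay between these in the other fits. In control replicate 1 the shortest class stood at -0.14 and the longest at 0.20 relative to the mean over samples, and in control replicate 4 at 0.03 and -0.11. The part of these libraries in the pattern was not tested beyond leaving them out.

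**Figure D5:**
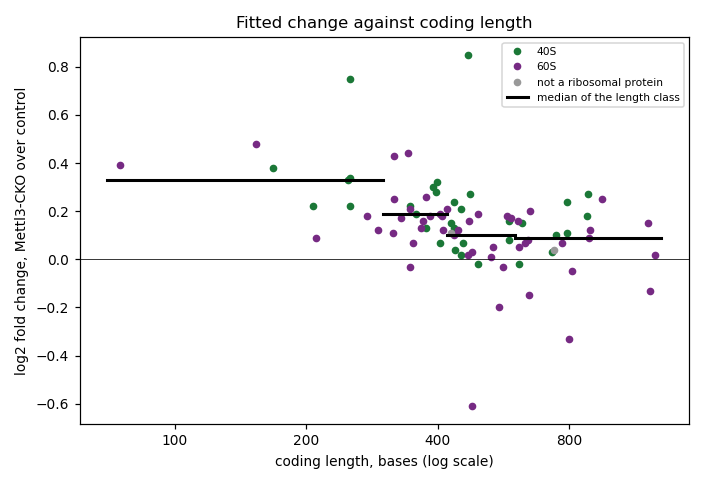
Fitted log2 fold change (*Mettl3*-CKO over control) of the 84 tested genes against coding length in bases on a log axis, with colours for the subunit. Black lines give the median of each length class, which falls from 0.33 in the shortest to 0.09 in the longest.

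*Rpl41* and *Rps29*, among the shortest members and named after their values were seen, had log2 fold changes of 0.39 (SE 0.14, adjusted p = 0.103, edgeR) and 0.38 (SE 0.15, adjusted p = 0.117, edgeR). *Rpl41* was at 635, 467, 728 and 540 CPM in the 4 *Mettl3*-CKO retinas, against 523, 406, 386 and 499 CPM in the 4 control retinas. *Mettl3*-CKO replicate 2 lay below 2 controls, and the other *Mettl3*-CKO samples lay above every control.

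Cytosolic ribosomal protein genes that the name rule leaves out were read beside the family. *Fau*, which encodes RPS30 as a fusion, was at 306 ± 36.9 CPM in *Mettl3*-CKO and 305 ± 34.3 CPM in control retinas (SD, n = 4), and *Rack1*, a 40S scaffold, had a log2 fold change of -0.03 (SE 0.12). *Rps19bp1* and *Rpl7l1*, members by name alone, had log2 fold changes of 0.11 and 0.04, and neither passed the test.

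Genes that act with the ribosome were read from lists that were written with earlier results of these data known. Their counts are to be read against the 6.49% of all tested genes called higher and the 4.05% called lower. Of 72 ribosome assembly factors, 10 rose and 0 fell, with a median log2 fold change of 0.10. They included *Imp3* (0.89) and *Rrs1* (0.88), which act in small and large subunit assembly, *Nop10* (0.60), a protein of box H/ACA particles, and *Rrp15* (0.55). Of 77 tested mitochondrial ribosomal protein genes, 15 rose and 0 fell, with a median of 0.07. The largest rises among them were *Mrpl43* (0.97), *Mrpl14* (0.94), *Mrps2* (0.92) and *Mrpl46* (0.82). Thus single assembly and mitochondrial genes had larger fitted changes than any called cytosolic member, while the medians of these lists were lower than that of the cytosolic family.

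In the next lists few genes were called, beside 6.49% of all tested genes called higher. Of 16 genes for RNA polymerase I transcription, 1 rose, *Polr1d* (0.60), and 0 fell. Of 40 initiation factors 1 rose, *Eif1a* (0.58), with a median of -0.03, and of 11 elongation and release factors 1 rose, *Eef1g* (0.29), with a median of 0.14. Of 22 other mRNAs with a TOP motif, 1 rose, *Eef1g*, and 1 fell, with a median of 0. Of 13 tested host RNAs of small nucleolar RNAs, *Snhg1* (0.30) was called higher at the threshold, and the median was 0.28. The snoRNA hosts, whose RNAs also start with pyrimidines, had the highest median of these 5 lists.

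Of 23 genes of mTORC1 and TOP mRNA control, 2 rose and 0 fell, *Eif4ebp1* (0.90), which encodes an inhibitor of cap-dependent translation, and *Sesn2* (0.72). Of 17 tested p53 targets and genes of ribosome stress, 11 rose and 0 fell, with a median of 0.69, whereas 6.49% of all tested genes were called higher and 4.05% lower. They included *Ddit4l* (2.19), *Eda2r* (2.06), *Phlda3* (1.36) and *Cdkn1a* (1.33), the inhibitor of cyclin-dependent kinases, beside *Rps27l*, which is also a member of the family.

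Markers of retinal cell types moved with the groups as well. Of 14 progenitor and cell division markers, 5 rose and 0 fell, and their summed level was 3308 to 4502 CPM in *Mettl3*-CKO and 2471 to 3261 CPM in control retinas. Of 11 rod markers, 7 fell and 0 rose, and the sum was 1941 to 3609 CPM in *Mettl3*-CKO and 3506 to 5559 CPM in control retinas. Control replicate 1, with high ribosomal protein counts, had the highest rod sum and the lowest progenitor sum of the 8 samples. The progenitor sums of the groups did not overlap and the rod sums did.

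Of 12 tested vascular markers 9 fell, with a median log2 fold change of -1.32. Their sums were 553 to 652 CPM in *Mettl3*-CKO and 590 to 677 CPM in control retinas, which overlapped. Of 3 tested erythrocyte markers 2 fell, with a median of -2.21 and sums of 4.35 to 7.38 and 14.1 to 26.5 CPM. Of 9 tested lens markers 6 fell, with control replicate 4 far above all other samples. Of 9 tested Müller glial markers 1 rose and 1 fell, with sums of 2113 to 2263 and 2028 to 2534 CPM, and of 10 microglial markers 0 were called, with sums of 105 to 150 and 61.3 to 188 CPM. No marker of these lists was at 0 in all samples. Their part in the values of the ribosomal protein genes was not tested.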

How the data were processed

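The authors deposited raw counts per gene for 4 *Mettl3*-CKO and 4 control retinal samples, made by mapping filtered paired-end reads to GRCm38 with HISAT2 and counting with featureCounts. The annotation release and strand setting were not given in the sources used here, and 0 columns were left unused. Members and lists were chosen with earlier results of these data known. Genes were named by a fixed rule: called members with the largest changes, the 5 highest and 5 lowest by control FPKM, stalk, 5S and paralogue genes, those outside the name rule and those not tested, with up to 4 called genes for other lists. A few of these genes are left out of the text. Genes kept by filterByExpr were scaled by TMM and tested in R 4.3.3 with edgeR 4.0.16 (glmQLFTest, Benjamini-Hochberg, threshold 0.05), and the standard error was the log2 fold change over the square root of F. The alternatives were limma 3.58.1 (voom), DESeq2 1.42.0, other scalings and filters, samples left out and copies added. The test was tested on simulated counts. FPKM used the deposited gene length. Coding lengths and transcript words came from GENCODE vM21, in which 84 of the 86 members have the same coordinates. The samples were not treated as pairs. The correlations of same-numbered deviations ranged from -0.114 to 0.249, which is too few values to decide whether replicate numbers pair the samples. At this depth, 3 counts equal at most 0.185 CPM, and such floors cover counting error only.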

Additional observations from a re-analysis of the deposited data

Results flagged for a closer look

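A sample stood far from the other 3 of its group, by Dixon's 95% limit, in 7 of 80 groups examined. Chance alone would mark about 1 in 20 if the groups were independent. They share the same libraries, in which members shifted together, so the count cannot be set against chance. Control replicate 1 was high for *Rpl3* (643 CPM), *Rpl5* (596 CPM) and *Rps4x* (559 CPM). Control replicate 4 was high for *Rpl36* (257 CPM). *Mettl3*-CKO replicate 1 was high for *Rpl7l1* (79.9 CPM), *Mettl3*-CKO replicate 4 was high for *Rps27rt* (171 CPM), and *Mettl3*-CKO replicate 3 was low for *Rps27a* (185 CPM).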

How the results depend on the processing

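The number of members called higher was 3, and it was 6 with DESeq2, 1 with limma voom, 5 with scaling to total counts alone and 9 without a filter on low counts, where 1 was called lower. Leaving out 1 sample gave 0 to 23 called higher and 0 to 1 called lower, with medians of 0.09 to 0.21, and leaving out control replicates 1 and 4 gave 13. The median log2 fold change of 0.15 stayed above 0 in every fit, the difference in the share of counts (0.301 percentage points) was 0.191 to 0.412 with 1 sample left out, and *Mettl3* (-0.38) was called lower with DESeq2 (adjusted p = 0.032) and ranged from -0.49 to -0.31 with 1 sample left out. Whether replicate numbers pair the samples was not settled. *Mettl3*-CKO replicates 2 and 4 correlated best with the control of their own number, and replicates 1 and 3 did not. With the replicate number as a block, 3 members were called higher and 0 lower, with *Rps27a* gaining and *Rps27l* losing a call, the median was 0.16 and *Mettl3* was at -0.38.

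The fitted sign of some uncalled genes turned. With the copies added, *Rps10* was at 0.14 and *Rpl17* at 0.02. Without control replicates 1 and 4, *Rpl7* was at 0.14 and *Rack1* at 0.08. With 1 sample left out, *Rpl7* ranged from -0.11 to 0.10, *Rack1* from -0.09 to 0.09, *Fau* from -0.06 to 0.08, *Rps10* from -0.21 to 0.12, *Rpl7l1* from -0.03 to 0.08, *Rpl11* from -0.01 to 0.14 and *Rps27rt* from -0.06 to 1.01. With DESeq2 size factors *Fau* was at 0. Among 665 single-gene values, 30 lost and 25 gained a call. The cause was not tested. Depth limits only the lowest members, such as *Rpl36al*.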
